A study of Mus musculus with 54 samples.

Results

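The genes described here are 8 transcription factor genes of the foregut and pancreas, Gata4, Gata5, Gata6, Onecut1, Onecut2, Pdx1, Sox9 and Sox17, taken by name from 21631 protein-coding genes of the mouse genome. The cells were mouse pancreatic cancer cells, labelled as a primary tumor in place of a cell line name. Parental cells carried the genotype label WT and received DMSO, and the resistant cells were labelled gemcitabine resistant and received gemcitabine in DMSO. Gemcitabine is a nucleoside analogue that blocks DNA synthesis. Resistance and drug exposure went together, so their parts cannot be told apart. The sample labels were followed for the drug, although doxorubicin is the drug given for Hi-C in the text on the whole series. The labels name 54 samples in 18 groups, of which 3 parental and 3 resistant Hi-C samples stand behind the data used here.

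Hi-C ligates and sequences pieces of DNA that were in contact inside the nucleus. The deposited results were 1 list of chromatin loops on bins of 5 kb and 1 list of topologically associating domains on bins of 10 kb per condition. A loop is a pair of bins, the anchors, that contact each other more than their surroundings. A domain is a stretch of chromosome that contacts itself more than its neighbours. The parental list held 6829 loops and 3997 domains, and the resistant list 7169 loops and 4196 domains. Each condition thus has a single list, without replicate error, so no difference between conditions was tested. Read depth is unknown. A loop missing from a list was not called there, which is not proof that the contact was absent. No RNA was analysed here, so the expression of the 8 genes and the cell type given by the labels were not checked against marker levels.

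The factors act at successive steps of organ formation. Gata factors bind the DNA letters GATA through zinc fingers, and Gata4 and Gata6 act early in endoderm and in the pancreatic bud. Onecut1, also called Hnf6, and Onecut2 carry a cut domain and a homeodomain and act in liver and pancreatic ducts. Pdx1 is a homeodomain factor required for the pancreas to form and for beta cells to work. Sox9 keeps pancreatic progenitors and ducts, and Sox17 directs early definitive endoderm. In pancreatic cancer, GATA6 is known as a marker of the classical subtype in human tumours.

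RefSeq promoters of the GRCm38.p6 assembly were at hand for 3 of the 8 genes, each a window of 300 bases. Those of Onecut1 and Gata5 are shown because the resistant-only loops of Onecut1 and the shared loop of Gata5 ended within a few kb. Pdx1 is shown as a gene without such a loop. The windows lie at chr9:74861671-74861970 on the plus strand for Onecut1, at chr2:180334630-180334929 on the minus strand for Gata5, and at chr5:147269847-147270146 on the plus strand for Pdx1. The Onecut1 and Pdx1 windows hold the gene start used for the loop counts. The Gata5 window lies inside the gene body and does not reach the gene's higher end at 180335503, its start on the minus strand. Capitals mark CG dinucleotides.
Onecut1: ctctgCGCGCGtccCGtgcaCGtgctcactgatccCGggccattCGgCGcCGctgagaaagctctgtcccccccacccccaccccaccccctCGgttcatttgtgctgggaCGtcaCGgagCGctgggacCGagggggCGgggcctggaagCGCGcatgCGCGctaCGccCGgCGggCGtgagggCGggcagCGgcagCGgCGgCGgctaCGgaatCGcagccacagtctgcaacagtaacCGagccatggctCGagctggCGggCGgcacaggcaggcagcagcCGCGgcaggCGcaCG
Gata5: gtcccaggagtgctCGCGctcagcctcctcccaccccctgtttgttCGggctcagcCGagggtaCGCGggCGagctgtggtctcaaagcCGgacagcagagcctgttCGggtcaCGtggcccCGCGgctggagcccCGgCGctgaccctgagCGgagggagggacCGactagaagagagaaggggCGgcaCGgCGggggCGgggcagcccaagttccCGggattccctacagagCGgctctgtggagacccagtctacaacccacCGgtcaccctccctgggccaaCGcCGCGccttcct
Pdx1: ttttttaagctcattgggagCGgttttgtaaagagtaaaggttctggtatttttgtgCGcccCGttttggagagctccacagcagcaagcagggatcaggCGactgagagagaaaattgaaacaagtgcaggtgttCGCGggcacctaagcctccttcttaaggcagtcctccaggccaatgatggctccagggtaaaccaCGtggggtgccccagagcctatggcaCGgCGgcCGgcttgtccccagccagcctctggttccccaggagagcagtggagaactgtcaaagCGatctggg

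The Onecut1 promoter held 38 CG dinucleotides and 73.0% G and C, and the Gata5 promoter held 26 and 69.7%. The Pdx1 promoter held 11 and 55.3%, beside medians of 13 and 56.7% over 21045 promoters of protein-coding genes. Thus Onecut1 lay above the 90th percentile of both measures, at 34 and 71.3%, Gata5 between median and 90th percentile, and Pdx1 below the medians. None of these promoters lay inside a loop anchor. The nearest anchor bin was 3.03 kb from the Onecut1 promoter, in the resistant list, 5.07 kb from the Gata5 promoter in both lists, and 19.9 kb from the Pdx1 promoter, in the resistant list.

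Motifs were searched in both strands of these promoters. Forkhead words were TGTTTAC or its variants TGTTTGC and also TATTTAC, and 9.79% of all promoters held one. GATA words were AGATAA with its variant AGATAG, and TGATAA with its variant TGATAG, held by 25.8% of promoters. Onecut words were ATCGAT and the variant ATCAAT, held by 7.29%. None of these words was in the 3 windows. Words from the core of the CTCF site were AGGGGGC, the variant AGATGGC and the variant AGGTGGC, held by 23.4% of promoters. A single match was found, AGGGGGC at base 133 of the printed Onecut1 window (position -118 from the gene start). The CTCF form AGATGGC begins with the same letters as GATA forms, but no word is held whole in a word of another list. A match or its lack describes these letters in these windows and says nothing of binding.

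The first question was which loops reached the 8 genes in each condition. Loops with an anchor within 100 kb of a gene body numbered 14 in the parental list and 16 in the resistant list, and each belonged to 1 of the 8 genes. By this count 7 genes had a parental loop and 8 had a resistant loop, beside 72.2% and 73.9% of all protein-coding genes. The mean was 1.75 parental and 2.0 resistant loops per gene, beside 1.58 and 1.61 over all genes. The median was 1.5 parental and 2.0 resistant loops per gene, beside 1.0 over all genes in both lists. In the wider window the 8 genes thus lay near other genes by the mean and above them by the median. These values rest on 8 genes and were not tested.

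Loops with an anchor within 5 kb of a gene end, called gene-end loops below, were fewer and differed more in number. The parental list held 4, at Gata4, Gata5, Gata6 and Onecut2, and the resistant list held 9, at these genes and at Onecut1 and Sox9. Over all genes, 23.3% had a parental and 23.8% a resistant gene-end loop, so both counts of 4 and 6 of the 8 genes lay above the share of all genes. Pdx1 and Sox17 had no gene-end loop in either list.

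A loop was shared if the other list had a loop whose anchors were both within 10 kb of its own, and is called parental-only or resistant-only if not. Of the loops within 100 kb, 4 of 14 parental loops were found in both lists, 28.6% (exact Clopper-Pearson 95% interval 8.39 to 58.1, counting error only), beside 37.2% of all parental loops. The resistant list gave 5 of 16, 31.2% (11 to 58.7), beside 35.4% of all resistant loops. These intervals hold the shares of the whole lists. The parental and resistant counts differ by 1 because the parental partner of a Gata4 loop had its anchor 103 kb from the gene, just past the window.

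**Figure D1:**
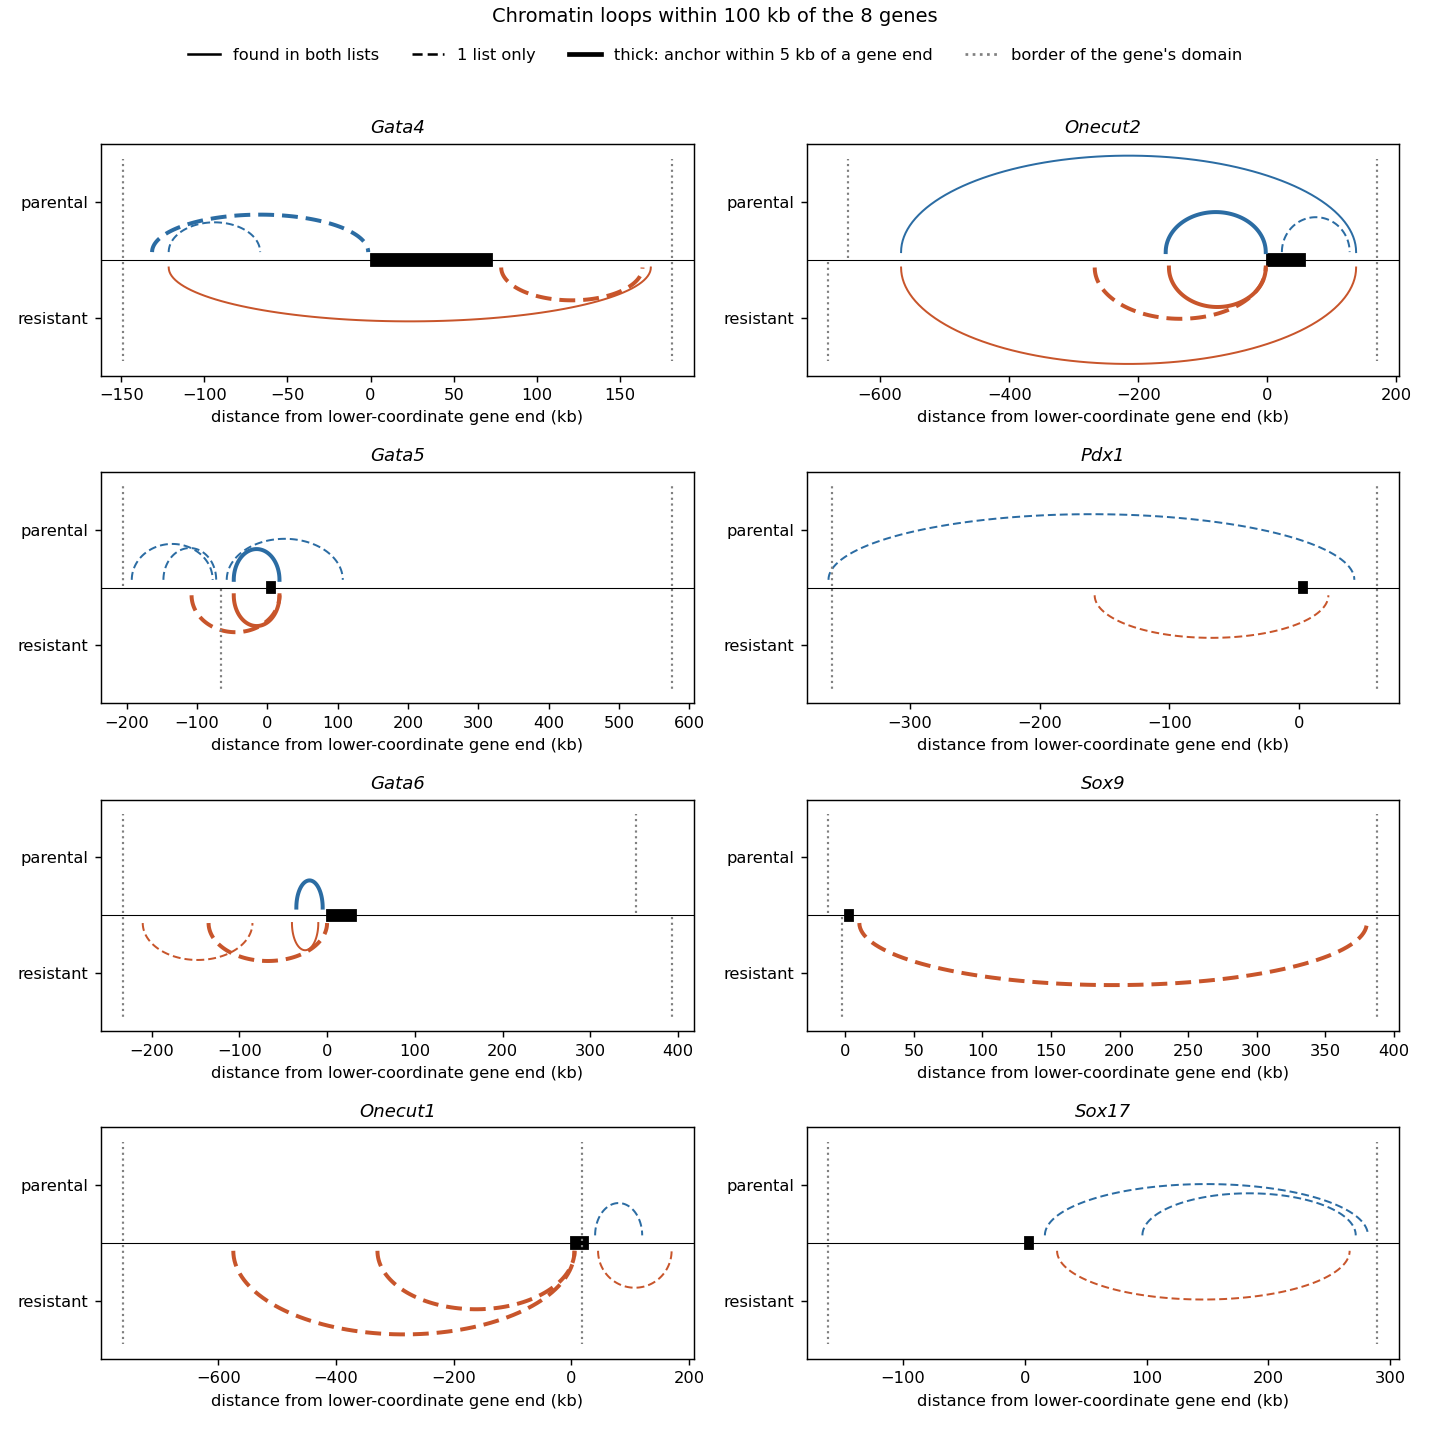
Each panel shows 1 gene as a black bar, with distance from its lower-coordinate end in kb on the horizontal axis, parental loops as blue arcs above and resistant loops as orange arcs below. Solid arcs were found in both lists, dashed arcs in 1 list, thick arcs have an anchor within 5 kb of a gene end, and dotted lines are the borders of the gene's domain; arc height grows with span and has no unit. The 7 thick dashed resistant arcs are spread over 6 genes, while Gata4 alone has a thick dashed parental arc.

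Condition-specific gene-end loops were mostly resistant-only. There were 7 resistant-only loops, at Onecut1 with 2 and at Gata4, Gata5, Gata6, Onecut2 and Sox9 with 1 each, and 1 parental-only loop, at Gata4. Resistant-only gene-end loops exceeded parental-only ones at 5 of the 8 genes, and the reverse held at none, with Gata4, Pdx1 and Sox17 level. Among all protein-coding genes the shares were 11.8% and 11.3%, and 14.2% had any resistant-only gene-end loop. The median difference was 1 loop for the 8 genes and 0 for all genes. These counts rest on 8 loops and were not tested. The 8 genes, and the list of related factors below, were chosen with earlier results of these data known, which limits the comparison with all genes. With the anchor bin required to hold the gene end itself, 1 parental-only loop (at Gata4) and 1 resistant-only loop (at Gata6) were left. Over all genes, 10.3% had a parental and 10.1% a resistant loop by this count, with shared loops included. By that stricter count 1 of the 8 genes, Gata6, had more resistant-only loops, beside 5.21% of all genes, and 1, Gata4, had more parental-only loops, beside 5.38%. The lean was thus 1 gene to 1 under it.

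In the wider window of 100 kb this lean was not seen. At 50 kb, a window that still includes the gene-end loops, Gata5, Gata6, Onecut1 and Sox9 leaned to resistant cells and no gene to parental cells. Parental-only loops within 100 kb numbered 10 at 6 genes, and resistant-only loops 11 at 8 genes, beside 54.5% and 56.9% of all genes with such loops. Gata6, Onecut1 and Sox9 had more resistant-only loops, Gata4, Gata5 and Sox17 had more parental-only loops, and Onecut2 and Pdx1 were level. Over all genes, 33.1% had more resistant-only and 31.0% more parental-only loops in this window. Of all condition-specific loops, 51.9% were resistant-only.

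**Figure D2:**
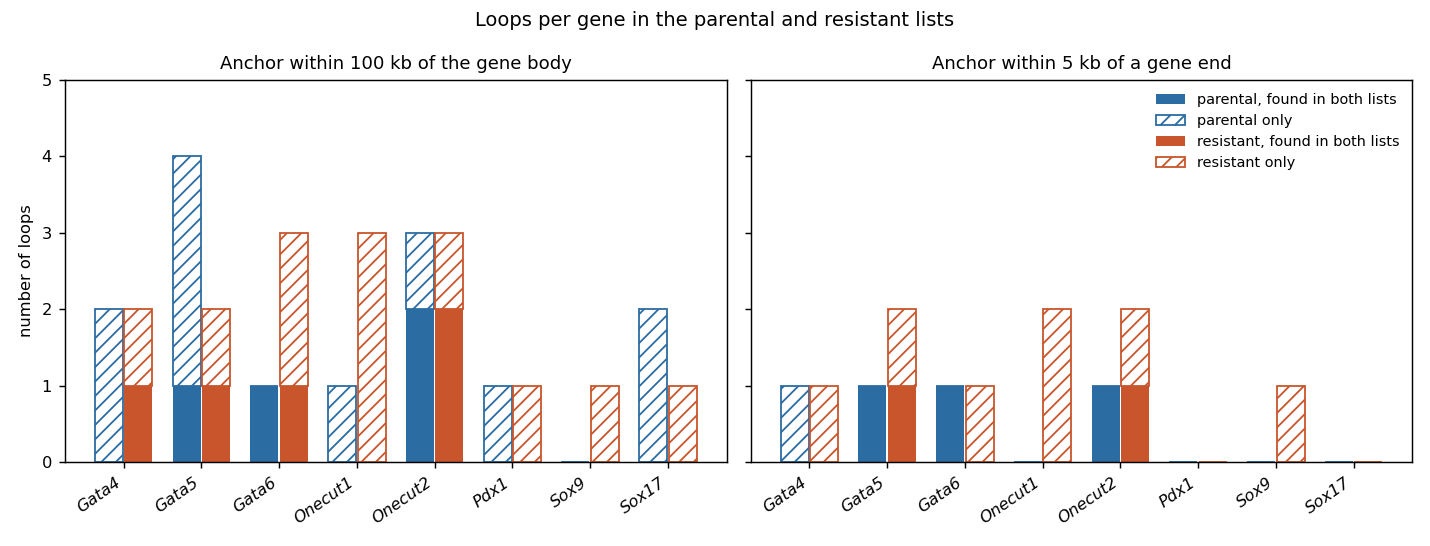
Bars give the number of loops per gene in the parental (blue) and resistant (orange) list, within 100 kb of the gene body on the left and at a gene end on the right; filled parts were found in both lists and hatched parts in 1 list. There are no error bars because each condition has 1 list. Gene-end loops numbered 4 for parental and 9 for resistant cells.

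Gata4, on chromosome 14 at 63198914 to 63271712 (mm10 for all coordinates), had loops on opposite sides in the 2 lists. The parental-only gene-end loop ran over 130 kb from a bin at 63065001 to 63070000 to one at 63195001 to 63200000 that holds the lower end of Gata4 (caller's p 1.55e-05, rank 2464 of 6829). Neil2, a DNA glycosylase of base excision repair, also had an end within 5 kb of that bin, so the anchor does not belong to Gata4 alone. The resistant-only gene-end loop ran over 85 kb on the other side, from a bin 3.29 kb past the higher end at 63275001 to 63280000 to 63360001 to 63365000 (caller's p 5.36e-05, rank 3048 of 7169).

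A loop found in both lists spanned the whole of Gata4. It joined bins at 63075001 to 63080000 and 63365001 to 63370000 in the resistant list (span 290 kb, caller's p 8.25e-07), near Blk, a Src-type kinase of B cells, and the parental partner was 10 kb longer on the Blk side (caller's p 6.65e-05). A further parental-only loop of 55 kb started at the same 63075001 bin and ended 63.9 kb short of the gene (caller's p 5.65e-06). The bins near 63075001 therefore recurred in 3 of these loops, while neither gene-side anchor was in use in the other list. The Gata4 domain had the same borders in both lists, 63050000 and 63380000, and held Ctsb, Fdft1, Neil2 and Gata4.

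Gata5, on chromosome 2 at 180325088 to 180335503, shared its gene-end loop between the conditions. This loop of 65 kb joined identical bins in both lists, 180275001 to 180280000 and 180340001 to 180345000. The caller gave it a p of 1.52e-08 among parental loops (rank 460) and of 5.19e-07 among resistant loops (rank 1191). Its far anchor lay within 5 kb of ends of Cables2, which encodes a protein that binds cyclin-dependent kinases, and of Rbbp8nl. The resistant list added a loop of 125 kb from the same Gata5-side bin to 180215001 to 180220000, where no gene end lay (caller's p 9.14e-06).

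The parental list had 3 further loops near Gata5 that the resistant list lacked. They joined 180175001 with 180250001, near Adrm1, Lama5, Rps21 and Cables2 (bin starts, span 75 kb, caller's p 1.57e-09, rank 209, the lowest p of all loops at the 8 genes), 180130001 with 180245001 (115 kb, caller's p 6.55e-07) and 180265001 with 180430001 (165 kb, caller's p 4.93e-05). Another such loop, of 25 kb, lay farther off, at 120 kb from the gene in the same parental domain (caller's p 7.03e-08). Lama5 encodes a laminin chain of basement membranes and Rps21 a ribosomal protein. The left border of the Gata5 domain also differed, at 180120000 for parental and 180260000 for resistant cells, 140 kb apart. The parental domain of 780 kb held 16 protein-coding genes and the resistant domain of 640 kb held 12, and the resistant border fell inside Cables2. In the resistant list the 125 kb loop thus crossed the border of the domain in which Gata5 lay.

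Gata6, on chromosome 18 at 11052510 to 11085636, was the only protein-coding gene wholly inside its domain. A short loop of 30 kb next to the lower end of the gene was found in both lists, shifted by 5 kb at each anchor. Its bins started at 11015001 and 11045001 in the parental list (caller's p 2.7e-06, rank 1789) and at 11010001 and 11040001 in the resistant list (caller's p 8.65e-09, rank 314). The shift took the resistant anchor to 7.51 kb from the gene, so this loop counts at the gene end in the parental list and not in the resistant list. The caller's p orders the loops of 1 list and does not measure a change between lists.

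A resistant-only loop ended at the gene itself. It ran over 135 kb from 10915001 to 10920000 to the bin at 11050001 to 11055000 that holds the lower end of Gata6 (caller's p 5.5e-05), and no gene end lay at its far anchor. A second resistant-only loop, from 10840001 to 10965001 (bin starts, 125 kb), ended 82.5 kb short of the gene and was a weaker call (caller's p 0.00337, rank 5358). All loops within 100 kb of Gata6 lay on its lower-coordinate side or ended at its lower end. The left border of the domain was at 10820000 in both lists, near Mib1, an E3 ligase of Notch ligands, and the right border lay at 11405000 for parental and 11445000 for resistant cells.

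Onecut1, on chromosome 9 at 74861921 to 74889648, had no parental gene-end loop and 2 resistant-only ones. Both ended in the same bin inside the gene, 74865001 to 74870000, which lies 3.03 kb downstream of the promoter window printed above. The longer ran over 580 kb to 74285001 to 74290000 near an end of Wdr72, a WD repeat protein known for its part in tooth enamel (caller's p 3.85e-05, rank 2893). The shorter ran over 335 kb to 74530001 to 74535000, where no gene end lay (caller's p 0.00178, rank 4929). None of the 3 anchors of these loops was in use in the parental list. These were the only resistant loops wholly inside the domain, and the parental list held none there.

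On the other side of Onecut1 the loops started from almost the same place and ended elsewhere. The parental-only loop joined 74900001 with 74980001 (bin starts, 80 kb, caller's p 1.06e-05). The resistant-only loop joined 74905001 with 75030001 near Fam214a and Arpp19, the last an inhibitor of a mitotic phosphatase (125 kb, caller's p 1.22e-06). Their starts differed by 1 bin, and their ends by 50 kb, so neither counted as found in both lists. A domain border at 74880000 in both lists fell inside the Onecut1 gene body. Of all genes in domains, 6.44% were cut by a border in both lists. The 2 long loops lay on one side of it and the 2 short ones on the other.

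Onecut2, on chromosome 18 at 64340032 to 64398488, kept 2 loops in both lists. The gene-end loop joined the bin at 64335001 to 64340000, next to the lower end of the gene, with 64180001 to 64185000 in the parental list (155 kb, caller's p 2.39e-05, rank 2655) and with 64185001 to 64190000 in the resistant list (150 kb, caller's p 3.78e-07, rank 1089). A loop of 705 kb between 63770001 and 64475001 (bin starts) enclosed the gene and had identical bins in both lists (caller's p 5.81e-05 and 3.35e-05). The resistant list added a loop of 265 kb from the same gene-side bin to 64070001 to 64075000 (caller's p 4.8e-05). Both of its anchors were in use in the parental list, although not with each other.

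The parental-only loop of Onecut2 started inside the gene, at 64360001 to 64365000, and ended at 64465001 to 64470000 (105 kb, caller's p 0.000533). Elsewhere in the domain the parental list had 3 loops that ended over 100 kb from Onecut2, of spans 345, 195 and 25 kb, all weak calls (caller's p 0.00505, 0.0117 and 0.0201), and the resistant list had none there. The separation score of this domain, deposited without a scale, was among the lowest in both lists, at rank 18 of 3997 and 23 of 4196 (-1.15 and -1.16). The right border was at 64510000 in both lists. The left border lay at 63690000 for parental cells, inside Txnl1, which encodes a thioredoxin-like protein, and at 63660000 for resistant cells, which left Txnl1 wholly inside the domain.

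Pdx1, on chromosome 5 at 147270097 to 147275848, lay under 1 long loop in each list and had no loop at its ends. The parental-only loop ran over 405 kb from 146905001 to 146910000 to 147310001 to 147315000, the last near Cdx2, an intestinal homeodomain factor, and Urad, an enzyme of urate breakdown (caller's p 8.88e-06). The resistant-only loop ran over 180 kb from 147110001 to 147115000, near Polr1d, a subunit of RNA polymerases I and III, to 147290001 to 147295000 (caller's p 0.00789, rank 5970 of 7169). That loop had the highest p of all loops at the 8 genes. The parental loop started and ended within 20 kb of the domain's own borders, 146910000 and 147330000, which were the same in both lists. The right border lay 0.74 kb from Flt3, a receptor kinase of blood progenitors.

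Sox9, on chromosome 11 at 112782210 to 112787757, had no parental loop within 100 kb, and the nearest parental anchor was 382 kb away. The resistant list held 1 loop, of 370 kb, from a bin 2.24 kb past the gene at 112790001 to 112795000 to 113160001 to 113165000, where no gene end lay (caller's p 0.000221, rank 3763 of 7169). Its far anchor was in use in the parental list and its Sox9-side anchor was not. The loop spanned almost the whole Sox9 domain, which ended at 113170000 in both lists and started at 112770000 for parental and 112780000 for resistant cells. Sox9 thus lay 12.2 kb from the border of its domain in parental cells and 2.21 kb from it in resistant cells, a difference of 1 bin. The resistant domain held 1 more loop, of 60 kb, which was 212 kb from the gene (caller's p 3.96e-05), and the parental domain held none. Sox9 is known to be flanked by long gene-free stretches with distant enhancers.

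Sox17, on chromosome 1 at 4490928 to 4497426, had loops that started past its higher end and ran away from it. The parental-only loops joined 4505001 with 4770001 near Mrpl15, a mitochondrial ribosomal protein (bin starts, 265 kb, caller's p 1.64e-05), and 4585001 with 4760001 (175 kb, caller's p 0.000155). The resistant-only loop joined 4515001 with 4755001 (240 kb, caller's p 0.00397, rank 5499). Its anchors lay 10 and 15 kb from those of the longer parental loop, the second just past the limit for a match. With a limit of 20 kb they counted as found in both lists. The domain ran from 4330000 to 4780000 in both lists and held Sox17 as its only whole gene.

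**Figure D3:**
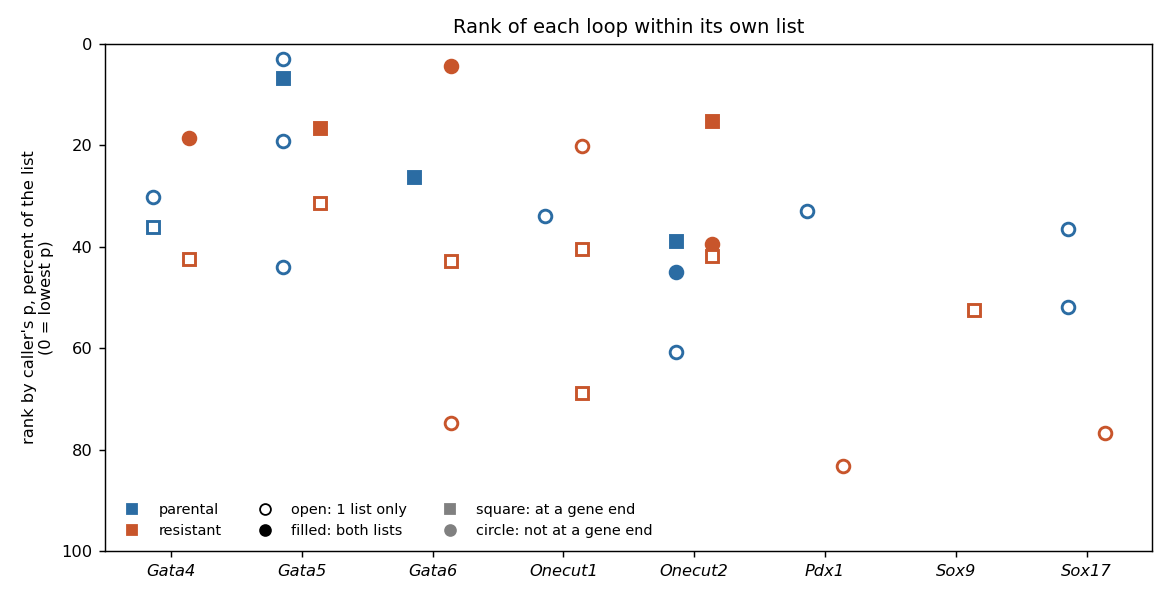
Each point is 1 loop within 100 kb of a gene, placed by its rank by caller's p as a percentage of its own list, with the lowest p at the top. Blue is parental and orange resistant, filled points were found in both lists, and squares are at a gene end. The 7 open orange squares lie between 31.3% and 68.8% of the resistant list, and the filled orange squares at 15.2% and 16.6%.

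In the resistant list, the gene-end loops found in both lists ranked higher than those found there alone. The 7 resistant-only gene-end loops ranked from 31.3% to 68.8% of the resistant list, and the 2 resistant gene-end loops found in both lists ranked at 15.2% and 16.6%. The parental list did not show this order: its 3 shared gene-end loops ranked at 6.74%, 26.2% and 38.9%, and the 1 parental-only loop at 36.1%. Ranks of shared and unshared loops over the whole lists were not compared. The order in the resistant list thus cannot be called particular to these genes. Over all loops within 100 kb, the median rank was 35% of the parental and 41.1% of the resistant list. Median spans of these loops were 122.5 and 165.0 kb beside 110.0 kb in both lists.

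The far ends and anchors of the gene-end loops were set beside those of other genes. Of the 4 parental gene-end loops 1 had a protein-coding gene end within 5 kb of its far anchor, and of the 9 resistant ones 2 had, at Cables2 with Rbbp8nl and at Wdr72. Over the gene-end loops of all genes, 32.5% of parental and 31.4% of resistant loops had a gene end at both anchors, close to these counts. Of the 7 resistant-only gene-end loops, 3 started from a gene-side anchor already used by a parental loop, at Gata5, Gata6 and Onecut2, beside 31.3% of the gene-side anchors of such loops at all genes. For 3 others, both loops of Onecut1 and that of Gata4, neither anchor was in use in the parental list, beside 51.4% of such loops at all genes. Counts of 3 of 7 do not set these genes apart from that background. Of the resistant gene-end loops, 5 of 9 had an anchor within 20 kb of a domain border, and of the parental ones 1 of 4. The shares at hand were 26.9% of resistant and 24.7% of parental loops. These cover whole lists and not gene-end loops alone, so the sets are unlike. Among the 5 were both Onecut1 loops, which ended in the same bin near the border.

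Domains around the 8 genes were similar in size in the lists and, by the median, poor in genes. Both borders were found in both lists, within 20 kb, for 5 genes, Gata4, Onecut1, Pdx1, Sox9 and Sox17, beside 60.9% of the 21262 genes that lay in a domain in both lists. The exceptions were Gata5 with a border 140 kb apart, Gata6 with 40 kb and Onecut2 with 30 kb. The median domain held 2.5 protein-coding genes in each list, beside 9 over all genes, while median sizes were 517.5 kb and 537.5 kb beside 550 and 540 kb. The Gata5 domain was not poor in genes, with 16 in parental and 12 in resistant cells, and the Pdx1 domain held 8 in both lists. Gata6, Sox9 and Sox17 were alone in their domains in both lists, as were 3.45% of all genes in parental and 3.72% in resistant cells. Loops wholly inside the members' domains numbered 18 for parental and 16 for resistant cells. The median per member was 1.5 and 2.0 loops, beside 2.0 over all genes in both lists. In parental cells the Gata5 and Onecut2 domains held 6 loops each.

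Related factors were counted in the same way for 36 genes of the Gata, Onecut and Sox families, Gata cofactors and other foregut and pancreas factors. At gene ends, 8 of the 36 had more resistant-only and 8 more parental-only loops, 22.2% each, and 20 were level. Over all genes these shares were 11.8% and 11.3%. Within 100 kb, 12 had more resistant-only and 13 more parental-only loops, 33.3% and 36.1%, beside 33.1% and 31.0% of all genes. The wider list was thus level at gene ends. Gata2 and Gata3, factors of blood cells and of T cells, had 1 resistant-only gene-end loop each and no parental loop within 100 kb, and Sox4, a progenitor factor, had 2 resistant-only gene-end loops. Nr5a2, Mnx1, Isl1, Glis3 and Zfpm1 leaned the same way. Sox2, Sox18 and the Gata cofactor Zfpm2 had 1 parental-only gene-end loop each and no resistant one, and Foxa2, Foxa3, Rbpjl, Nkx2-2 and Cdx2 also had more parental-only loops there.

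**Figure D4:**
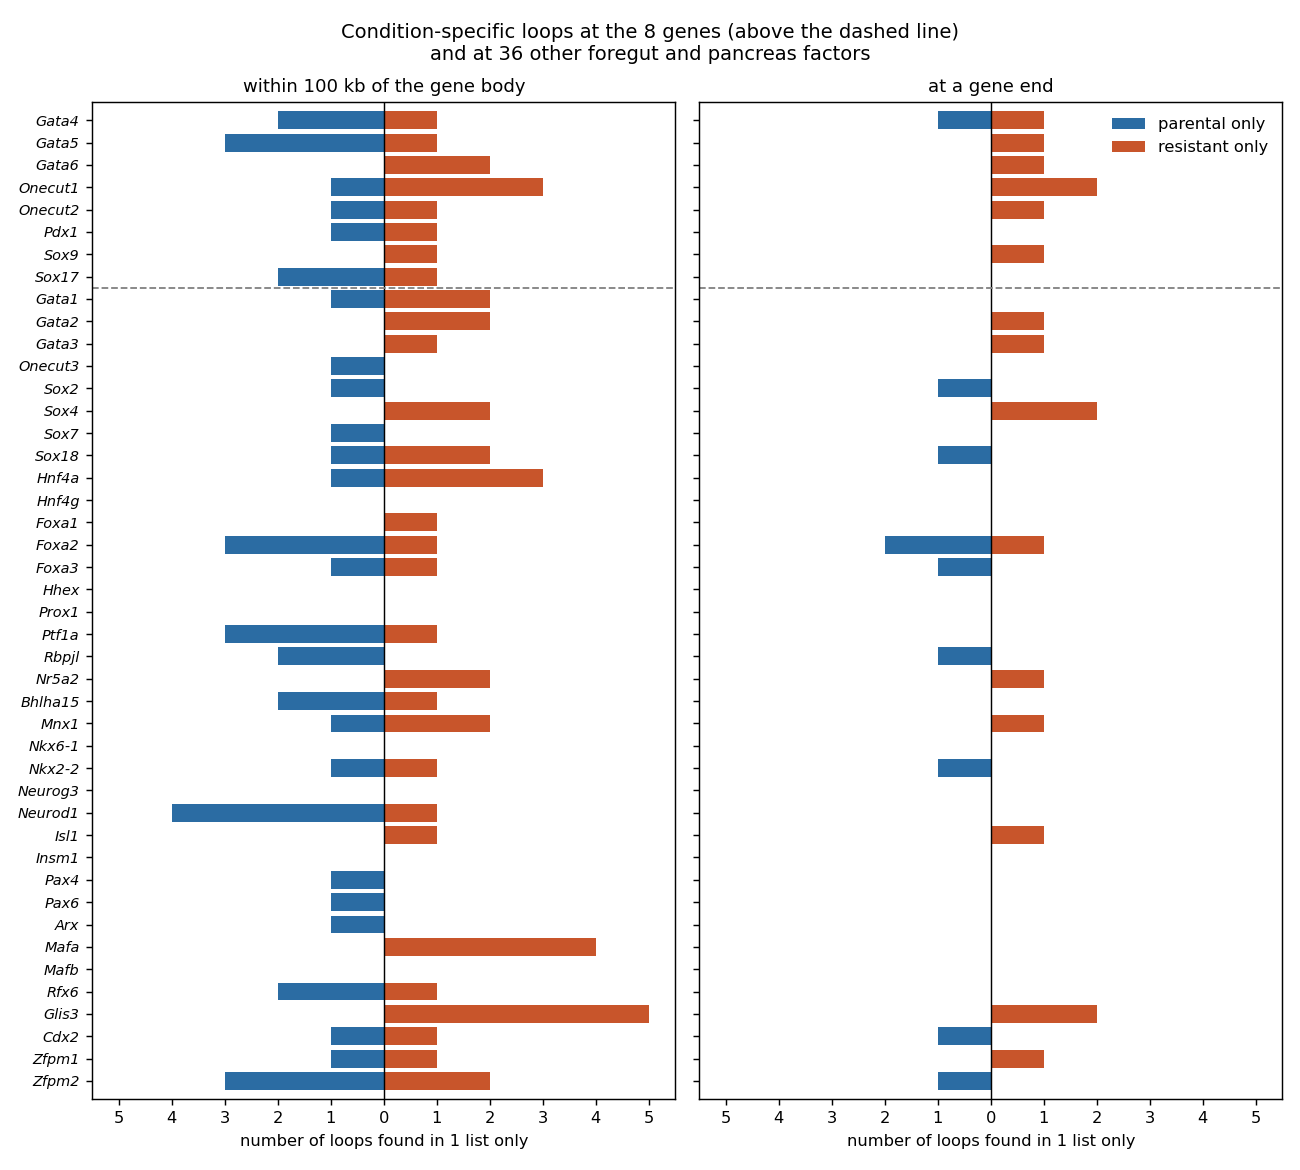
Bars give the number of loops found in 1 list only, parental-only to the left in blue and resistant-only to the right in orange, within 100 kb of the gene body and at a gene end. The 8 genes stand above the dashed line and the 36 other factors below it. At gene ends 5 of the 8 genes have more resistant-only loops, and the 36 other factors divide 8 to 8.

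Among the 36, Glis3, a zinc finger factor of beta cells, had the largest difference within 100 kb, with 5 resistant-only loops and no parental-only one. These 5 loops had caller's p from 8.7e-05 to 0.0242. The window was measured from the gene body, and Glis3 is a long gene, at 28258851 to 28680265 on chromosome 19. Its search region was thus wider than that of short genes, and counts were not adjusted for gene length. Mafa, an activator of the insulin gene, had 4 resistant-only loops and no parental loop, none of them at its ends. In the other direction Neurod1, an endocrine factor, had 4 parental-only and 1 resistant-only loop, and Foxa2, a forkhead pioneer factor, had 3 and 1. Foxa2 was named by symbol among 7 factors with a difference of this size, the others being Ptf1a and Rbpjl in the same direction and Gata2, Sox4, Hnf4a and Nr5a2 in the other.

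The factor with the nearest counts of parental-only, shared and resistant-only loops within 100 kb was found for each of the 8 genes. Shared loops were counted from the parental list, so the Gata4 loop whose parental partner lay past the window did not enter. On these 3 counts each gene had a factor at a distance of 0. Counts this small take few values, so exact matches come easily and say nothing of shared regulation. How often other genes would match was not tested. Gata5 matched Ptf1a, an acinar and progenitor factor, with 3 parental-only, 1 shared and 1 resistant-only loop. Onecut1 matched Hnf4a, a nuclear receptor of liver and gut, with 1, 0 and 3, and Gata6 matched Sox4 with 0, 1 and 2. Onecut2 matched Zfpm1, a Gata cofactor, and Pdx1 matched Cdx2. Gata4 and Sox17 matched both Bhlha15 and Rfx6, and Sox9 matched both Gata3 and Isl1. Counted from the resistant list, Gata4 had 1 shared loop and Bhlha15 and Rfx6 had none. Pdx1 and Cdx2 lie in the same domain, and Cdx2 sat at an anchor of the parental loop over Pdx1. The anchor bins that start at 147310001 and 147290001 lie within 100 kb of both genes. The same loops were thus counted for each, and their match follows from position. That parental loop is also the parental-only gene-end loop of Cdx2.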

How the data were processed

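Hi-C of 3 parental and 3 resistant samples was deposited as 1 loop list and 1 domain list per condition; 48 samples of other assays were not analysed here. The submitters' processing notes name BWA with builds mm10 and hg19. No source used here states the caller, its settings or whether replicates were pooled. The deposited loop tables carry a caller's p-value for every loop, at most 0.0497, and the deposited domain tables a separation score, per the file headers; both were used only to describe or rank calls within a list. Read depth is unknown.

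Gene coordinates came from RefSeq's GRCm38.p6, the assembly called mm10, and promoters from RefSeq. Strand was used for 3 of the 8 genes only, so loops were counted at both gene ends. A gene's domain is that holding its midpoint. Loops were found in both lists when each anchor lay within 10 kb, and borders when within 20 kb. All 8 genes, their loop partners, the 4 other factors of largest difference and those of nearest counts were named by rule; genes at other anchors and borders, and further related factors, were named after their values were seen. Some genes of the list of related factors are not reported here and were left out of its counts. The 8 genes and the list were chosen with earlier results of these data known. Clopper-Pearson 95% intervals cover counting error. Loop matching was tested on a partly shifted copy of the parental list, and distances to genes on made-up loops. Domain lookup, border matching and the motif search were not tested in this way. Python 3.11.15 was used with pandas 2.3.3, numpy 2.4.6 and scipy 1.17.1. Alternatives were other windows, tolerances, lists of equal length, the better-ranked part of each list by p, and spans over 15 kb.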

Additional observations from a re-analysis of the deposited data

How the results depend on the processing

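No paired analysis was possible because each condition has 1 deposited list, and no replicate could be left out. With the narrower window of 50 kb the parental count of loops fell from 14 to 8 and the resistant count from 16 to 13. Of these, 37.5% of parental and 23.1% of resistant loops were found in both lists. Gata5 had 1 more resistant-only than parental-only loop, where 100 kb gave a difference of -2. Gata6 and Sox9 also had 1 more and Onecut1 had 2 more, while the other genes were level. The share of all genes at 50 kb is not at hand. With the anchor bin required to hold the gene end, gene-end loops numbered 1 in each list and 1 gene, Gata6, leaned to resistant cells in place of 5, while Gata4 leaned to parental cells (-1). Under this setting the share of all genes with a parental gene-end loop also fell, from 23.3% to 10.3%. Counting genes that lean was added after the data were seen; 4 or 5 genes leaned under the other settings, the exceptions with 4 being exact bin matching, which lost Gata6, and the better-ranked part of each list by p, which lost Sox9. With gene ends taken within 10 kb, Sox17 leaned to parental cells (-1). With exact bin matching the share of loops found in both lists fell from 28.6% to 14.3% of parental and from 31.2% to 12.5% of resistant loops, inside intervals that are wide at these counts. Other summary counts stayed within 1.5 times. Of the values for single genes under all alternatives, 95 kept their direction, 16 moved to or from 0 and 1 reversed. Unknown depth limits any reading of calls found in 1 list only.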
